A study of Mus musculus with 12 samples.

Results

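The genes described here are 36 genes of the synapse, measured in the hippocampus of 12 male mice. They are 22 genes of the presynaptic terminal, which build, fill and release synaptic vesicles, and 14 genes of the postsynaptic side, which anchor receptors and carry calcium signals beneath them. The members were set by name, *Syp* (synaptophysin) and *Dlg4* (PSD-95) among them, and each was read from the array's transcript cluster that carries its symbol alone, the brighter one on average where a gene had more than 1. All 36 were found among the 22180 genes that the array names in this way. The 4 groups held 3 mice each, 18 months old, with 1 Affymetrix Mouse Gene 2.0 ST array per mouse. HFD-fed *App* mice were homozygous *App* NL-F/NL-F knock-in mice on a high fat diet for 12 months, and RD-fed *App* mice had the same genotype on the control diet, called the regular diet (RD) by the study. HFD-fed and RD-fed wild-type mice received the same 2 diets without the knock-in. The labels call the HFD-fed mice of both genotypes diabetic and the RD-fed mice of both genotypes non-diabetic. The knock-in places a humanised amyloid-beta sequence with the Swedish and Beyreuther/Iberian mutations in the mouse's own *App* gene, so that its own promoter drives it. Both genotypes were kept as separate inbred lines on a C57BL/6J background, and the study's comparison asked what diet and the knock-in, alone and together, did in the hippocampus.

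At a chemical synapse, vesicles loaded with transmitter dock at the active zone and fuse when calcium enters the terminal, through a complex of SNARE proteins that synaptotagmin triggers. Across the cleft, the postsynaptic density holds glutamate receptors in place through layers of scaffold proteins, of which PSD-95, the SHANK proteins and the Homer proteins are the best known. Synaptophysin and PSD-95 proteins are widely used to gauge synapse loss in Alzheimer's disease and its mouse models. The array measures the RNA of these genes in the whole hippocampus, so the RNA of cells whose axons end elsewhere is included and the RNA of distant neurons that project into it is not.

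The values are log2 expression as deposited, and a value is compared here only between mice, never between genes, because each gene has probes of its own. Array medians lay between 4.78 and 4.84, any 2 arrays correlated at 0.982 to 0.988 over 41345 clusters, and no 2 arrays were identical. On average over mice, 35 of the 36 members exceeded an intensity of 100 (log2 6.64), and *Gad1* lay below it at 6.49. Differences are log2 differences from limma with their standard error (SE), and an adjusted p is adjusted over all 41345 clusters. The *App* gene itself, read by probes that need not tell the knock-in allele from the wild-type allele, lay between 11.57 and 11.70 in every mouse and so checks no label.

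No member on either side of the synapse changed with genotype or diet at an adjusted p under 0.05 in any of 8 comparisons. These were the 4 comparisons of a single factor, HFD-fed *App* with RD-fed wild-type mice, the genotype and diet differences averaged over the other factor, and the interaction. With limma, 0% of all clusters passed that threshold in 7 of the comparisons and 0.00242%, a single cluster of the microglial cystatin gene *Cst7*, did in the averaged genotype comparison. At an unadjusted p under 0.05, 2 members passed, both postsynaptic. *Nrgn* (neurogranin) had a lower mean in RD-fed *App* than in RD-fed wild-type mice, 1 of 36 members against 3.12% of all clusters in that direction. *Homer1* had a lower mean in HFD-fed *App* than in RD-fed *App* mice, 1 of 36 members against 2.28% of all clusters. A share of 1 in 36 is near both backgrounds.

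In all other comparisons and directions 0 members had an unadjusted p under 0.05. Of all clusters, 2.34% passed as higher on HFD in *App* mice. On HFD in wild-type mice 2.95% passed as higher and 2.27% as lower, and in RD-fed *App* against RD-fed wild-type mice 3.06% passed as higher. In HFD-fed *App* against HFD-fed wild-type mice 2.43% passed as higher and 2.89% as lower, and in HFD-fed *App* against RD-fed wild-type mice 2.53% as higher and 2.66% as lower. Averaged over diets, 2.92% of clusters were higher and 3.55% lower in *App* mice, and averaged over genotypes 2.66% were higher and 2.3% lower on HFD. For the interaction the shares were 2.18% above and 2.79% below zero. 

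The precision of the design bounds how large a change could have gone unseen. In HFD-fed against RD-fed *App* mice the 95% interval of the fold change lay within 1.3-fold either way for 34 of 36 members and within 1.5-fold for 35. It lay within 1.3-fold for 34 members in HFD-fed against RD-fed wild-type mice and for 32 in RD-fed *App* against RD-fed wild-type mice. For HFD-fed *App* against HFD-fed wild-type mice the number was 34. Averaged over the other factor it was 35 for genotype and 35 for diet, whereas for the interaction it was 30. The widest intervals were those of *Slc17a6*, *Stx1a* and *Homer1*. The members varied little between mice of a group. Their within-group SD ran from 0.022 for *Syt1* and 0.027 for *Snap25* to 0.33 for *Slc17a6*, with a median of 0.084 against 0.092 over the 9858 clusters above an intensity of 100.

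**Figure D1:**
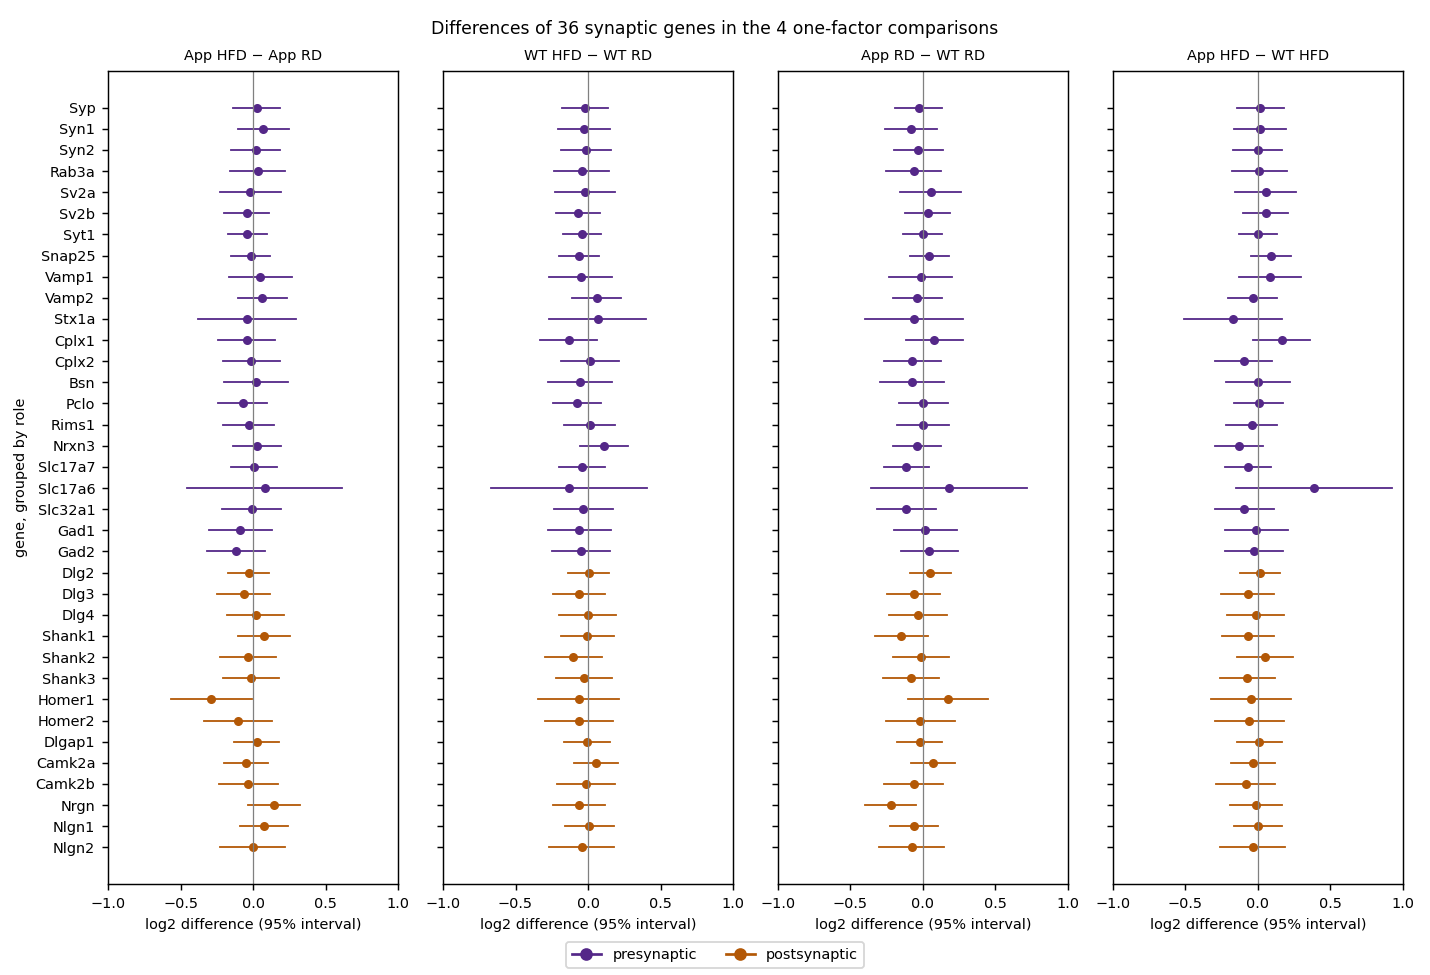
Log2 differences (x axis, points) with 95% intervals (lines) of the 36 genes (y axis, grouped by role) in 4 comparisons of a single factor, from limma over 12 mice. Purple marks presynaptic and brown postsynaptic genes, and the intervals of all genes cross zero except *Homer1* in HFD-fed minus RD-fed *App* mice and *Nrgn* in RD-fed *App* minus RD-fed wild-type mice.

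*Syp* encodes synaptophysin, the abundant membrane protein of synaptic vesicles. Its level was 11.13, 11.11 and 11.11 in HFD-fed *App* mice, 11.18, 11.06 and 11.03 in RD-fed *App* mice, 11.05, 11.09 and 11.15 in HFD-fed wild-type mice and 11.06, 11.10 and 11.21 in RD-fed wild-type mice. The 12 values spanned 0.17 on the log2 scale, and the groups overlapped. The HFD difference of *Syp* was 0.02 in *App* mice (SE 0.07, 95% interval -0.14 to 0.19) and -0.02 in wild-type mice (SE 0.07, -0.18 to 0.14). The difference of RD-fed *App* from RD-fed wild-type mice was -0.03 (SE 0.07, -0.19 to 0.13), and that of HFD-fed *App* from HFD-fed wild-type mice was 0.02 (SE 0.07, -0.14 to 0.18). Two-sided exact permutation p-values of *Syp* were 0.6 to 1 in the 5 comparisons of a pair of groups, where 3 against 3 mice allow no p under 0.1. They were 0.86 for genotype, 0.97 for diet and 0.51 for the interaction, where 400 assignments allow none under 0.005. For the interaction diet was permuted within genotype, which is exact only if diet has no effect. The adjusted p of *Syp* from limma was at least 0.974 in all 8 comparisons.

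The 250 bases before the start of *Syp* are shown because synaptophysin is one of the 2 reference markers of the set (RefSeq, build GRCm38.p6, chrX:7638330-7638579, plus strand, 5′ to 3′). Capitals mark the GC box, GGGCGG on either strand, a motif bound by Sp factors, of which this window holds 2.
Syp: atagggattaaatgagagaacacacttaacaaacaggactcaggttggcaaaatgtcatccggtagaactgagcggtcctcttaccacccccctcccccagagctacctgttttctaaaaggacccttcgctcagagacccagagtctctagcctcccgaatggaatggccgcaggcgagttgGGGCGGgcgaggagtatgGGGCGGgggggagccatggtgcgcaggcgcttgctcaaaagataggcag

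The other genes of the vesicle membrane were *Syn1* and *Syn2*, synapsins that tether vesicles to actin, *Sv2a* and *Sv2b*, vesicle glycoproteins of which SV2A is the target of levetiracetam, and *Rab3a*, the small GTPase of vesicle docking. Their values spanned from 0.18 on the log2 scale over the 12 mice for *Syn2* to 0.32 for *Sv2a*, each wider than the span of *Syp*. All 6 vesicle genes had a mean difference below 0 in HFD-fed against RD-fed wild-type mice, from -0.069 for *Sv2b* to -0.015, and none had an unadjusted p under 0.05. In that comparison 28 of all 36 members and 54.1% of clusters above an intensity of 100 lay below 0, so the direction was not particular to vesicle genes. In HFD-fed against RD-fed *App* mice 2 of the 6 were below 0 and the differences ran from -0.045 to 0.071. *Syn1* differed most in the interaction, by 0.10.

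The genes of the fusion machinery are *Snap25*, *Vamp1*, *Vamp2* and *Stx1a*, which encode the SNARE proteins, *Syt1*, the calcium sensor, and *Cplx1* and *Cplx2*, the complexins that clamp and activate the complex. *Snap25* was 12.67, 12.68 and 12.71 in HFD-fed *App* mice, 12.72, 12.71 and 12.68 in RD-fed *App* mice, 12.63, 12.56 and 12.58 in HFD-fed wild-type mice and 12.67, 12.63 and 12.67 in RD-fed wild-type mice. On each diet all 3 *App* mice lay above all 3 wild-type mice. With 3 against 3 mice even a full separation has an exact permutation p of 0.1. The share of all clusters that separated is not given here, so no separation of a member, here or below, is read as a result. The averaged genotype difference of *Snap25* was 0.07 (SE 0.04, limma p 0.149, adjusted p 0.834). With an intensity-dependent prior spread the same difference of *Snap25* had an unadjusted p of 0.00829 and an adjusted p of 0.53. Under that setting *Nrgn* (0.0157), *Slc17a7* (0.0212), *Cplx1* (0.0321), *Shank1* (0.0325) and *Nrxn3* (0.047) also had an unadjusted limma p under 0.05 for genotype. Their adjusted p was 0.606 to 0.709. The share of all clusters at that threshold under this setting is not given here, so these members cannot be read as an excess.

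*Cplx1* was 10.39, 10.29 and 10.21 in HFD-fed *App* mice, 10.32, 10.40 and 10.30 in RD-fed *App* mice, 10.25, 9.99 and 10.15 in HFD-fed wild-type mice and 10.18, 10.25 and 10.36 in RD-fed wild-type mice. The lowest value belonged to an HFD-fed wild-type mouse, and the genotypes overlapped on both diets. The averaged genotype difference of *Cplx1* was 0.12 (SE 0.06, limma p 0.0813, adjusted p 0.798). *Syt1* had the smallest spread of all members, 11.85 to 11.94 over the 12 mice. Its 3 values in HFD-fed *App* mice, 11.85 to 11.87, lay below the 3 in RD-fed *App* mice, 11.88 to 11.93, a difference of -0.04. *Stx1a*, encoding syntaxin-1A, was in contrast uneven within groups, from 8.26 to 8.76. Its largest difference was -0.17, in HFD-fed *App* against HFD-fed wild-type mice.

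The active zone and presynaptic adhesion were represented by *Bsn* and *Pclo*, which encode the giant scaffold proteins bassoon and piccolo, *Rims1*, which primes vesicles near calcium channels, and *Nrxn3*, a neurexin that binds postsynaptic neuroligins. *Nrxn3* was 9.88, 9.77 and 9.75 in HFD-fed *App* mice, 9.90, 9.70 and 9.74 in RD-fed *App* mice, 9.93, 9.92 and 9.94 in HFD-fed wild-type mice and 9.79, 9.83 and 9.85 in RD-fed wild-type mice. The HFD-fed wild-type mice lay above all HFD-fed *App* mice and above all RD-fed wild-type mice. The difference of HFD-fed *App* from HFD-fed wild-type mice was -0.13 (SE 0.07, limma p 0.111, adjusted p 0.952). *Bsn*, *Pclo* and *Rims1* differed by no more than 0.075 in any comparison, the largest being *Pclo* on HFD in wild-type mice, at -0.075.

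Among genes of transmitter identity the within-group SD ran from 0.057 for *Slc17a7* to 0.33 for *Slc17a6*, the widest of all members. *Slc17a7* encodes VGLUT1, the vesicular glutamate transporter of hippocampal and cortical excitatory neurons. It was 10.78, 10.91 and 10.82 in HFD-fed *App* mice, 10.80, 10.87 and 10.83 in RD-fed *App* mice, 10.90, 10.83 and 10.99 in HFD-fed wild-type mice and 10.92, 10.94 and 10.98 in RD-fed wild-type mice. All 6 *App* mice lay below the 3 RD-fed wild-type mice, while the HFD-fed groups overlapped. The averaged genotype difference was -0.09 (SE 0.05, limma p 0.0992, adjusted p 0.811).

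*Slc32a1*, the vesicular transporter of GABA and glycine, was 7.36, 7.29 and 7.53 in HFD-fed *App* mice, 7.45, 7.31 and 7.45 in RD-fed *App* mice, 7.39, 7.62 and 7.45 in HFD-fed wild-type mice and 7.46, 7.52 and 7.57 in RD-fed wild-type mice. The RD-fed *App* mice lay below the RD-fed wild-type mice, and the HFD-fed groups overlapped. Its averaged genotype difference was -0.10 (SE 0.07, limma p 0.144, adjusted p 0.83). *Gad1* and *Gad2* make GABA from glutamate. Both differed most in HFD-fed against RD-fed *App* mice, by -0.087 for *Gad1* and -0.12 for *Gad2*, and neither had an unadjusted p under 0.05.

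*Slc17a6* encodes VGLUT2, the vesicular glutamate transporter that predominates in the thalamus and other subcortical neurons. Its level was 8.14, 6.96 and 7.65 in HFD-fed *App* mice, 7.53, 7.34 and 7.65 in RD-fed *App* mice, 7.08, 7.40 and 7.12 in HFD-fed wild-type mice and 7.47, 7.17 and 7.34 in RD-fed wild-type mice. The highest and the lowest of the 12 values thus both came from HFD-fed *App* mice. The averaged genotype difference was 0.28 (SE 0.17, limma p 0.128, adjusted p 0.824). It was 0.14 without HFD-fed *App* mouse 1 (limma p 0.307) and 0.44 without HFD-fed *App* mouse 2, where the unadjusted limma p was 0.0039. Without any other single mouse the limma p lay between 0.104 and 0.222.

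Markers of thalamus and habenula, structures that adjoin the dissected tissue, moved with *Slc17a6* in mouse 1 of the HFD-fed *App* group. All 10 listed markers were measured, 4 of them brighter on average than an intensity of 100. In that mouse 9 of 10 lay above their 12-mouse mean, *Tcf7l2* at 7.26, *Prkcd* at 7.96 and *Lef1* at 6.89 each being the highest of the 12 mice. The mean deviation of the list ran from -0.12 to 0.52 in HFD-fed *App* mice, -0.41 to 0.06 in RD-fed *App* mice, -0.014 to 0.11 in HFD-fed wild-type mice and -0.12 to -0.012 in RD-fed wild-type mice. The lowest, in RD-fed *App* mouse 1, came with a *Slc17a6* level of 7.53, above the 12-mouse mean of 7.40. The part of these markers in the *Slc17a6* values was not tested.

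*Dlg4* encodes PSD-95, the principal scaffold of the excitatory postsynaptic density. It was 9.48, 9.56 and 9.38 in HFD-fed *App* mice, 9.56, 9.46 and 9.35 in RD-fed *App* mice, 9.54, 9.38 and 9.55 in HFD-fed wild-type mice and 9.59, 9.42 and 9.46 in RD-fed wild-type mice. Every group spanned most of the range of the 12 mice, and all groups overlapped. The HFD difference of *Dlg4* was 0.02 in *App* mice (SE 0.09, 95% interval -0.18 to 0.21) and -0.0018 in wild-type mice (SE 0.09, -0.20 to 0.20). The difference of RD-fed *App* from RD-fed wild-type mice was -0.03 (SE 0.09, -0.23 to 0.16), and that of HFD-fed *App* from HFD-fed wild-type mice was -0.02 (SE 0.09, -0.21 to 0.18). Two-sided exact permutation p-values of *Dlg4* were 0.7 to 1 between pairs of groups, 0.62 for genotype, 0.895 for diet and 0.845 for the interaction, with the same lower limits as for *Syp*. Its adjusted p from limma was at least 0.972 in all 8 comparisons.

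RefSeq lists 3 promoter windows for *Dlg4*, and the most upstream is shown for comparison with that of *Syp* (GRCm38.p6, chr11:70016953-70017202, plus strand, 5′ to 3′). It is all in lower case because it holds no GC box and neither of the cyclic AMP response element (CRE) motifs searched below, and its GC content is 47.2% against 56.4% for *Syp*.
Dlg4: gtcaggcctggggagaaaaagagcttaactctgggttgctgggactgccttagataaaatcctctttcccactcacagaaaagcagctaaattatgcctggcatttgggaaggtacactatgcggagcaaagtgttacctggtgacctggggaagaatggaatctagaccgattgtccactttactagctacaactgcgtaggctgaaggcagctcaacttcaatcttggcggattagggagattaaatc

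Among the paralogues of PSD-95 and the other scaffolds, *Dlg3* and *Shank1* had the smallest p-values after *Homer1*. *Dlg3* encodes SAP102, and its level was 8.43, 8.56 and 8.48 in HFD-fed *App* mice, 8.54, 8.61 and 8.52 in RD-fed *App* mice, 8.64, 8.42 and 8.63 in HFD-fed wild-type mice and 8.59, 8.69 and 8.59 in RD-fed wild-type mice. The HFD-fed *App* mice lay below the RD-fed wild-type mice, with a difference of -0.13 (SE 0.08, limma p 0.14, adjusted p 0.983). *Dlg2*, encoding PSD-93, and *Dlgap1*, encoding a protein that links PSD-95 to the SHANK proteins, differed by at most 0.051 and 0.03. *Shank1* encodes a master scaffold of the deeper layer of the density. It was 9.77, 9.99 and 9.85 in HFD-fed *App* mice, 9.92, 9.73 and 9.74 in RD-fed *App* mice, 9.95, 9.95 and 9.92 in HFD-fed wild-type mice and 9.91, 9.94 and 9.98 in RD-fed wild-type mice. Wild-type mice were tightly grouped and *App* mice spread wider and mostly lower, with an averaged genotype difference of -0.11 (SE 0.06, limma p 0.0896, adjusted p 0.801). Its relatives *Shank2* and *Shank3* differed by at most 0.10 and 0.098 in any comparison.

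*Homer1* encodes the scaffold that couples metabotropic glutamate receptors to calcium stores, and its short isoform Homer1a is an activity-induced immediate early gene product. The cluster value does not separate the isoforms. *Homer1* was 8.27, 8.22 and 8.61 in HFD-fed *App* mice, 8.87, 8.57 and 8.52 in RD-fed *App* mice, 8.34, 8.51 and 8.40 in HFD-fed wild-type mice and 8.49, 8.53 and 8.42 in RD-fed wild-type mice. HFD-fed *App* mice 1 and 2 were the lowest of all 12 and RD-fed *App* mouse 1 the highest, but HFD-fed *App* mouse 3 lay above 2 of the RD-fed *App* mice, so the groups overlapped. The HFD difference in *App* mice was -0.29 (SE 0.12, 0.819-fold, 95% interval 0.676 to 0.992), with a limma p of 0.0427 and an adjusted p of 0.999. In wild-type mice the HFD difference was -0.07 (SE 0.12), and the interaction was -0.22 (SE 0.18, limma p 0.234, adjusted p 1). Leaving out 1 mouse moved the difference in *App* mice between -0.41 and -0.18. It was -0.24 without HFD-fed *App* mouse 1 (limma p 0.126), -0.21 without HFD-fed *App* mouse 2 (limma p 0.15) and -0.18 without RD-fed *App* mouse 1 (limma p 0.175), while without HFD-fed *App* mouse 3 the unadjusted limma p was 0.00593. The limma p was 0.0456 without RD-fed *App* mouse 2 and 0.0289 without RD-fed *App* mouse 3. Leaving out a wild-type mouse, which is outside the comparison, gave a limma p of 0.0492 to 0.0548. *Homer2*, its paralogue, differed by at most 0.12, and its lowest value, 7.13, was in HFD-fed *App* mouse 1.

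Other immediate early genes moved with *Homer1* in single mice. This set of 6 (*Arc*, *Egr1*, *Fos*, *Junb*, *Nr4a1*, *Npas4*) was chosen after the values of *Homer1* had been seen. *Arc*, an activity-induced regulator of receptor endocytosis, was 8.10, 7.86 and 8.39 in HFD-fed *App* mice, 9.11, 8.29 and 8.46 in RD-fed *App* mice, 8.16, 8.42 and 8.18 in HFD-fed wild-type mice and 8.02, 8.41 and 8.03 in RD-fed wild-type mice. The same mouse was highest for *Arc* and *Homer1*, RD-fed *App* mouse 1, and the same mouse lowest, HFD-fed *App* mouse 2. The difference of *Arc* between HFD-fed and RD-fed *App* mice was -0.50 (SE 0.21, limma p 0.0392, adjusted p 0.999). All 6 genes had a negative difference in that comparison, between that of *Arc* and -0.054 for *Nr4a1*, where 50.4% of all clusters lay below 0. These differences are not given here without RD-fed *App* mouse 1. The mean deviation of the 6 genes was -0.33 to 0.15 in HFD-fed *App* mice, -0.12 to 0.41 in RD-fed *App* mice, 0.041 to 0.19 in HFD-fed wild-type mice and -0.18 to 0.14 in RD-fed wild-type mice. It was 0.41 in RD-fed *App* mouse 1 but -0.053 in mouse 2 and -0.12 in mouse 3 of that group. Its part in the *Homer1* values was not tested.

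The window before *Homer1* is shown because the gene has an activity-induced isoform and the cyclic AMP response element is a known motif of activity-induced promoters (GRCm38.p6, chr13:93303507-93303756, plus strand, 5′ to 3′, the most upstream of 2 windows). Capitals mark TGACG on either strand, the core of the element, which occurs 3 times. The full element TGACGTCA does not occur in it. This core was added to the search after this sequence had been read.
Homer1: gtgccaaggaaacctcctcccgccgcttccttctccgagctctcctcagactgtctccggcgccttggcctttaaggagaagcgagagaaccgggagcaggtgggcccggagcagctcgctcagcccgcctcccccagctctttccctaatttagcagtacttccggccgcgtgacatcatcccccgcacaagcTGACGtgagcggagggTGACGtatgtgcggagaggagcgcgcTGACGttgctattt

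**Figure D2:**
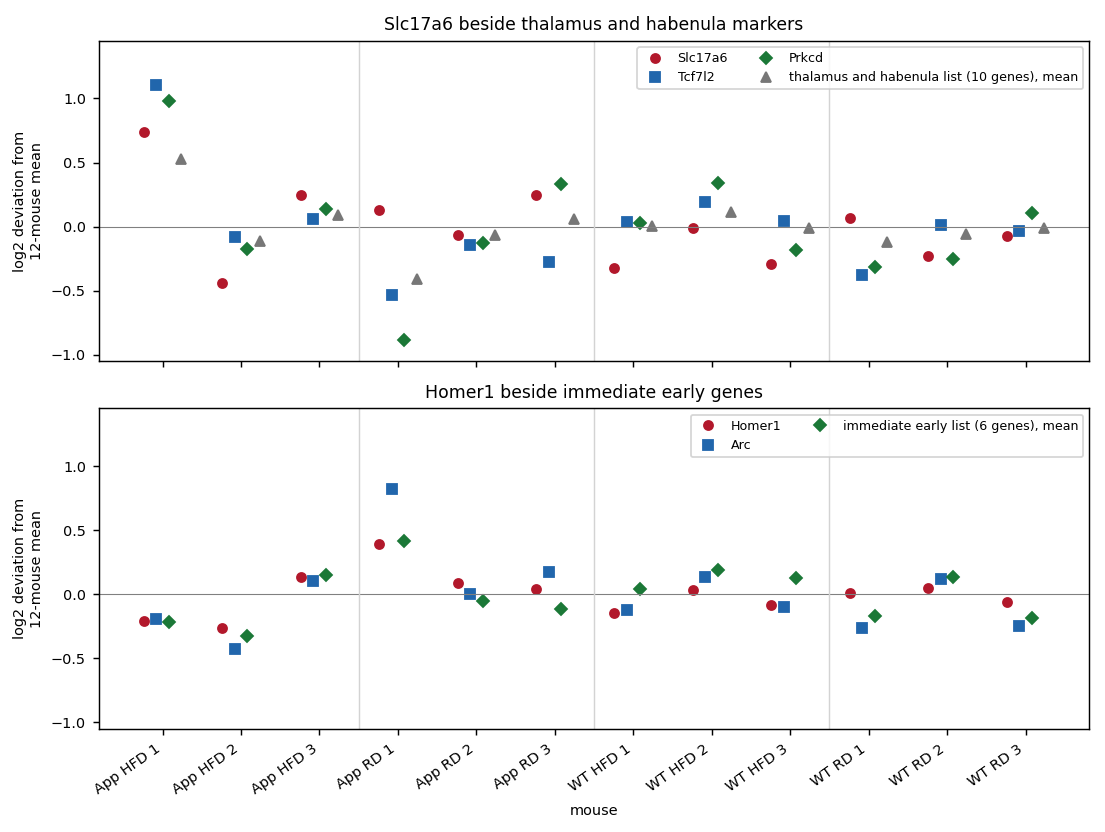
Log2 deviation from each gene's own 12-mouse mean (y axis) in each mouse (x axis) for *Slc17a6* with thalamus and habenula markers (upper panel) and for *Homer1* with immediate early genes (lower panel). HFD-fed *App* mouse 1 is highest for *Slc17a6* and for the marker mean (0.52), and RD-fed *App* mouse 1 is highest for *Homer1*, *Arc* and the immediate early mean (0.41).

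Calcium signalling beneath the receptors was represented by *Nrgn*, which encodes neurogranin, a calmodulin-binding protein of dendritic spines, and by *Camk2a* and *Camk2b*, the subunits of the kinase needed for long-term potentiation. *Nrgn* was 11.29, 11.43 and 11.27 in HFD-fed *App* mice, 11.29, 11.10 and 11.17 in RD-fed *App* mice, 11.38, 11.29 and 11.36 in HFD-fed wild-type mice and 11.41, 11.34 and 11.47 in RD-fed wild-type mice. All 3 RD-fed *App* mice lay below all 3 RD-fed wild-type mice, and the HFD-fed groups overlapped. The difference between the RD-fed genotypes was -0.22 (SE 0.08, 0.857-fold, 95% interval 0.757 to 0.97), with a limma p of 0.0192 and an adjusted p of 0.74. Between the HFD-fed genotypes it was -0.01 (SE 0.08, limma p 0.868, adjusted p 0.998). The interaction, which tests whether those 2 differences differ, was 0.21 (SE 0.11, limma p 0.0948, adjusted p 1). Leaving out 1 mouse moved the RD-fed difference of *Nrgn* between -0.27 and -0.18, and the unadjusted limma p was 0.0743 without RD-fed *App* mouse 2 and 0.0669 without RD-fed wild-type mouse 3. Markers of CA pyramidal and dentate granule neurons, given with all marker lists below, were also lower in RD-fed *App* than in RD-fed wild-type mice. Among the 3 RD-fed *App* mice, mouse 1 was lowest for both lists and highest for *Nrgn*. The mean deviation of CA pyramidal markers was -0.22, -0.080 and 0.025 in RD-fed *App* mice and 0.064, 0.043 and 0.093 in RD-fed wild-type mice, and 8 of 9 markers had a lower mean in the *App* mice. For dentate granule markers it was -0.18, -0.080 and -0.010 in RD-fed *App* mice and 0.071, -0.0041 and 0.11 in RD-fed wild-type mice, with 7 of 8 markers lower. Neither list overlapped between these groups, although the dentate granule values nearest each other were -0.010 and -0.0041. In the same comparison 4 of 9 general neuronal and 5 of 9 interneuron markers were lower, as were 50.2% of clusters above an intensity of 100. The part of these markers in the *Nrgn* values was not tested. Since RNA came from whole tissue, fewer neurons and less RNA per neuron cannot be told apart for this or any other member.

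*Camk2a* lay between 11.23 and 11.41 over the 12 mice. Its 3 values in RD-fed wild-type mice were below those of RD-fed *App* mice and below those of HFD-fed wild-type mice, with differences of 0.07 and 0.05 that did not reach an unadjusted p of 0.05. *Camk2b* differed by at most 0.097 in size, in the negative direction in each of the 5 comparisons of a pair of groups. The postsynaptic adhesion genes *Nlgn1*, of excitatory synapses, and *Nlgn2*, of inhibitory synapses, differed by at most 0.074 and 0.078.

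The window before *Nrgn* is shown because the gene had the smallest p of the 36 (GRCm38.p6, chr9:37552746-37552995, minus strand, 5′ to 3′). Capitals mark its single GC box, which lies on the opposite strand and so reads CCGCCC.
Nrgn: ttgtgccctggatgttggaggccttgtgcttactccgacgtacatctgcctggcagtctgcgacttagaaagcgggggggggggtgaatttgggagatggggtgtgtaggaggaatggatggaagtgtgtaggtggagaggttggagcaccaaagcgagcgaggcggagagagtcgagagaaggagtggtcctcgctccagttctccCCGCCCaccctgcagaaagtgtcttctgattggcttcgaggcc

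Among the 31 members with a window in the table, 18 held a GC box, GGGCGG on either strand (58.1%), against 33% of 27026 windows of the same length over all genes. TATAAA, the TATA box, was in 2 of 31 (6.45%, 13% of all windows), the core TGACG in 6 (19.4%, 17.8%) and TGACGTCA in 1, *Syn1* (3.23%, 1.6%). Every full element also holds the core. The median GC content was 61.2% for members and 52% for all windows. These are matches of letters only.

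**Figure D3:**
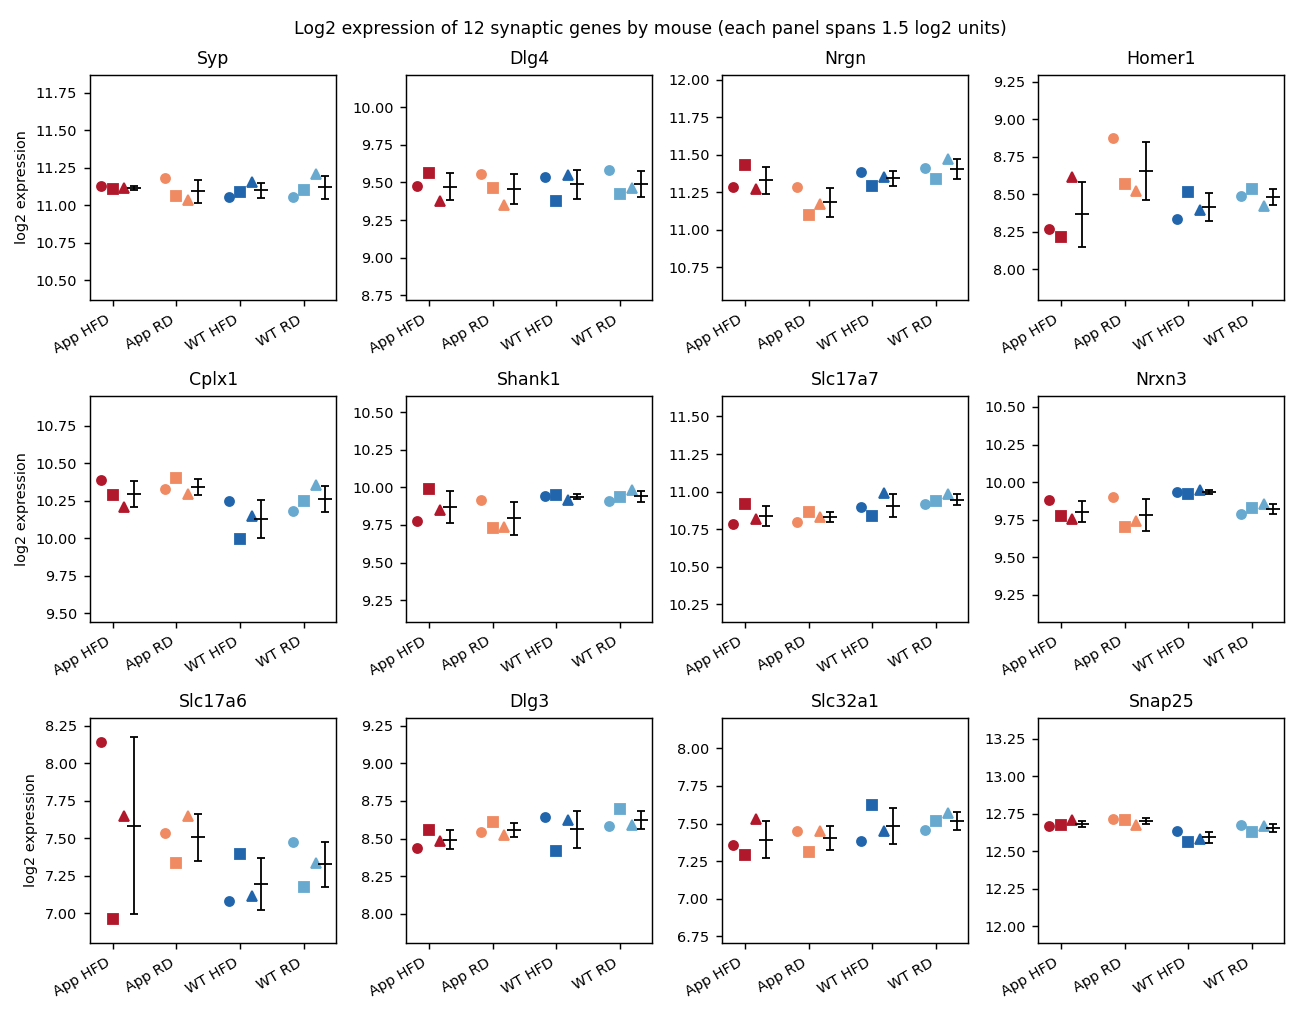
Log2 expression (y axis, each panel spanning 1.5 units) of *Syp*, *Dlg4* and the 10 members with the smallest p in any comparison, by group (x axis). Points are mice, and the black dash and bar give mean and SD (n = 3). *Slc17a6*, with an SD of 0.59 in HFD-fed *App* mice, is the widest, while *Syp* and *Snap25* span 0.17 and 0.15 over the 12 mice.

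Over each side of the synapse as a whole, the median member sat slightly below zero in most comparisons. In HFD-fed against RD-fed *App* mice the median difference was -0.012 for the presynaptic and -0.023 for the postsynaptic genes, against 0.0074 for the clusters above an intensity of 100, and 21 of 36 members lay below zero (58.3%, 46.4% of those clusters). In HFD-fed against RD-fed wild-type mice the medians were -0.040 and -0.020, against -0.0083, and 28 of 36 members lay below zero (77.8%, 54.1%). That count ran from 22 to 30 when single mice were left out. In RD-fed *App* against RD-fed wild-type mice the medians were -0.022 and -0.048, against -0.00036, with 24 of 36 below zero (66.7%, 50.2%). In HFD-fed *App* against HFD-fed wild-type mice they were 0.00015 and -0.035, against 0.011, with 21 of 36 below zero (58.3%, 44.6%). In HFD-fed *App* against RD-fed wild-type mice they were -0.025 and -0.075, against 0.0044, with 26 of 36 below zero (72.2%, 47.8%). The median of all 41345 clusters lay between -0.0054 and -0.0014 in these comparisons. These comparisons share groups, so their shifts are not separate observations. With single mice left out, members below zero numbered 18 to 24 in HFD-fed against RD-fed *App* and 18 to 26 in RD-fed *App* against RD-fed wild-type mice. They numbered 16 to 23 in HFD-fed *App* against HFD-fed wild-type and 24 to 28 against RD-fed wild-type mice. The presynaptic median changed sign in each of these except the last, and the postsynaptic median only in the first.

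A score per mouse, the mean deviation of the genes of one side from their 12-mouse means, showed how small these shifts were. The presynaptic score was 0.0075, -0.039 and 0.017 in HFD-fed *App* mice, 0.053, -0.011 and -0.033 in RD-fed *App* mice, -0.022, -0.022 and 0.0011 in HFD-fed wild-type mice and -0.022, 0.022 and 0.048 in RD-fed wild-type mice. The postsynaptic score was -0.071, 0.016 and -0.026 in HFD-fed *App* mice, 0.037, -0.0075 and -0.048 in RD-fed *App* mice, -0.0066, -0.013 and 0.028 in HFD-fed wild-type mice and 0.0043, 0.036 and 0.051 in RD-fed wild-type mice. For both scores all 4 groups overlapped. The highest presynaptic score, in RD-fed *App* mouse 1, came from 17 of 22 genes above their mean, and RD-fed wild-type mouse 3, with the highest postsynaptic score, had 18 of 22 and 11 of 14 genes above.

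The postsynaptic minus the presynaptic score was -0.079, 0.055 and -0.043 in HFD-fed *App* mice, -0.016, 0.0039 and -0.015 in RD-fed *App* mice, 0.016, 0.0086 and 0.027 in HFD-fed wild-type mice and 0.026, 0.014 and 0.0024 in RD-fed wild-type mice. It was positive in all 6 wild-type mice and negative in 4 of 6 *App* mice, with the extremes in HFD-fed *App* mice. Without *Slc17a6* it was -0.044, 0.036 and -0.032 in HFD-fed *App* mice, -0.013, 0.0013 and -0.0016 in RD-fed *App* mice, 0.0014, 0.0092 and 0.013 in HFD-fed wild-type mice and 0.031, 0.0018 and -0.0032 in RD-fed wild-type mice, so that 5 of 6 wild-type mice were positive.

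**Figure D4:**
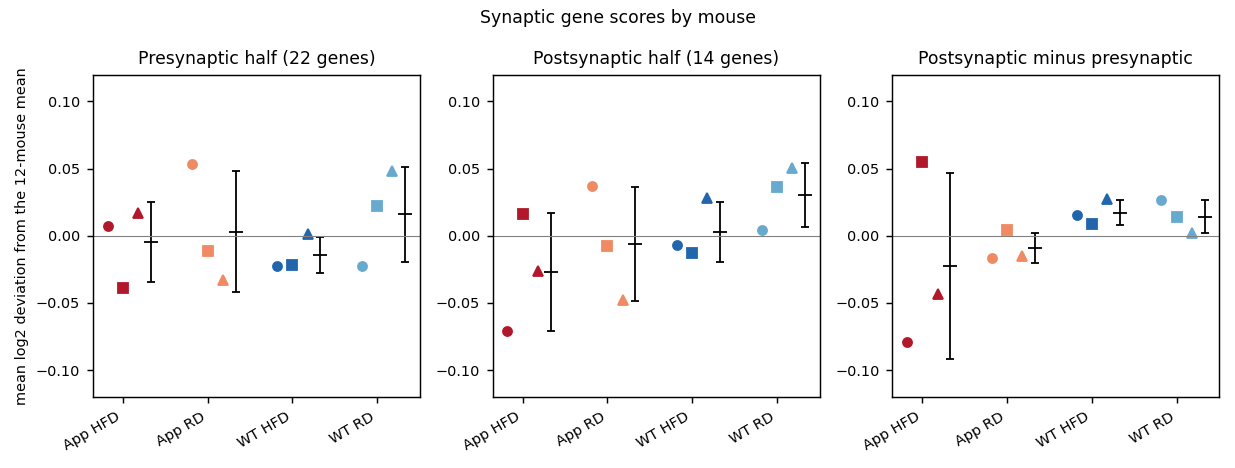
Mean log2 deviation of the presynaptic (22) and postsynaptic (14) genes from their 12-mouse means, and the difference of these scores (y axes), by group (x axis). Points are mice, the black dash and bar give mean and SD (n = 3), and all scores of either side lie between -0.071 and 0.053.

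Other genes of the same compartments, listed by role, gave the same count of calls. Of 76 such genes 69 were measured, 36 presynaptic and 33 postsynaptic, and limma called 0 in every comparison at an adjusted p under 0.05. At an unadjusted p under 0.05, the most presynaptic genes in one direction were 3 of 36 (8.33%) with a lower mean in HFD-fed than RD-fed *App* mice, where 2.28% of all clusters were, and the most postsynaptic genes were 2 of 33 (6.06%) with a lower mean in HFD-fed *App* than HFD-fed wild-type mice, where 2.89% were. The smallest p-values among presynaptic genes were for *Syt2*, a fast calcium sensor, with a difference of 0.40 between RD-fed *App* and RD-fed wild-type mice (SE 0.11, adjusted p 0.686), and *Unc13b*, a priming factor, with 0.29 in the same comparison (SE 0.09, adjusted p 0.686). *Syn3*, the third synapsin, had a difference of 0.20 between HFD-fed and RD-fed *App* mice (SE 0.07, adjusted p 0.999). Among postsynaptic genes they were for *Sorbs2*, with 0.25 between HFD-fed and RD-fed wild-type mice (SE 0.08, adjusted p 0.921), and the leucine-rich repeat adhesion genes *Lrrtm3* and *Lrrtm1*. In RD-fed *App* against RD-fed wild-type mice these differed by 0.38 (SE 0.15, adjusted p 0.759) and -0.19 (SE 0.07, adjusted p 0.771), in opposite directions.

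Marker lists of the cells in the tissue were read in the same way. Neuronal markers (9 of 10 measured) deviated by -0.0050 to 0.0014 in HFD-fed *App* mice, 0.0064 to 0.085 in RD-fed *App* mice, -0.050 to -0.034 in HFD-fed wild-type mice and -0.041 to 0.037 in RD-fed wild-type mice. Microglial markers (9 of 10) deviated by 0.0039 to 0.22 in HFD-fed *App* mice, -0.036 to 0.11 in RD-fed *App* mice, -0.061 to -0.028 in HFD-fed wild-type mice and -0.21 to -0.076 in RD-fed wild-type mice. Oligodendrocyte markers (9 of 10) deviated by 0.12 to 0.21 in HFD-fed *App* mice, -0.27 to 0.086 in RD-fed *App* mice, -0.072 to 0.040 in HFD-fed wild-type mice and -0.15 to -0.042 in RD-fed wild-type mice. Astrocyte markers (9 of 9) deviated by 0.018 to 0.068 in HFD-fed *App* mice, 0.031 to 0.068 in RD-fed *App* mice, -0.10 to -0.011 in HFD-fed wild-type mice and -0.066 to -0.019 in RD-fed wild-type mice, so that the genotypes did not overlap.

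Endothelial markers (8 of 8) deviated by -0.032 to 0.11 in HFD-fed *App* mice, -0.019 to 0.068 in RD-fed *App* mice, -0.14 to 0.30 in HFD-fed wild-type mice and -0.35 to 0.047 in RD-fed wild-type mice. Mural cell markers (8 of 8) deviated by -0.13 to 0.26 in HFD-fed *App* mice, -0.10 to 0.10 in RD-fed *App* mice, 0.021 to 0.24 in HFD-fed wild-type mice and -0.31 to -0.065 in RD-fed wild-type mice. In HFD-fed against RD-fed wild-type mice, where 28 of 36 synaptic genes lay below zero, all 8 endothelial and all 8 mural markers lay above it, with median differences of 0.24 and 0.35. All 9 oligodendrocyte markers lay above zero there (median 0.077) and 8 of 9 CA pyramidal markers below it (median -0.098). Of the other neuronal lists, 6 of 9 general neuronal, 5 of 9 interneuron and 3 of 8 dentate granule markers (median 0.0051) lay below zero. Of clusters above an intensity of 100, 54.1% did, and of all clusters 50.4%. On average only 4 of the 8 endothelial and 4 of the 8 mural markers exceeded that intensity. The part of these cells in the synaptic count was not tested. Interneuron markers (9 of 10) deviated by -0.069 to 0.027 in HFD-fed *App* mice, -0.040 to 0.065 in RD-fed *App* mice, -0.049 to 0.039 in HFD-fed wild-type mice and -0.072 to 0.088 in RD-fed wild-type mice.

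CA pyramidal markers (9 of 10) deviated by -0.053 to 0.15 in HFD-fed *App* mice, -0.22 to 0.025 in RD-fed *App* mice, -0.059 to 0.035 in HFD-fed wild-type mice and 0.043 to 0.093 in RD-fed wild-type mice. Dentate granule markers (8 of 8) deviated by -0.11 to 0.22 in HFD-fed *App* mice, -0.18 to -0.010 in RD-fed *App* mice, 0.0093 to 0.037 in HFD-fed wild-type mice and -0.0041 to 0.11 in RD-fed wild-type mice. On average 8 of these CA pyramidal and 4 of these dentate granule markers exceeded an intensity of 100. Choroid plexus markers (7 of 9) varied most, by -1.18 to 0.57 in HFD-fed *App* mice, -1.33 to 1.04 in RD-fed *App* mice, -1.15 to 0.87 in HFD-fed wild-type mice and -0.26 to 0.53 in RD-fed wild-type mice. The part of tissue composition in the synaptic values was not tested.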

How the data were processed

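Hippocampal RNA of 12 male mice, 3 per group by the sample labels, was measured on 1 array per mouse. The deposited log2 values, 41345 transcript clusters per array, were made by the authors with Transcriptome Analysis Console. No source used here says how probes were summarised and arrays normalized, and the values were used unchanged. Clusters were named through the platform annotation (23521 with 1 symbol, 1820 with several, 16004 with none).

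Group means were modelled for every cluster in limma 3.58.1 (R 4.3.3; lmFit, eBayes), which was tested on simulated data, with Benjamini-Hochberg adjustment across the whole table. *Syp* and *Dlg4* were also tested by two-sided exact permutation. Named mouse by mouse were *Syp*, *Dlg4* and the 10 members with the smallest p over 8 comparisons, and 3 genes with the smallest p from each list of other synaptic genes. The members and lists were chosen with earlier results of these data known. Alternatives were an intensity trend with robust spread, only clusters above an intensity of 100, quantile normalization, the replicate number as a block, only the groups compared, each mouse left out, the mean over a gene's clusters and, added after seeing the data, the presynaptic genes without *Slc17a6*. The number of arrays limits the precision, and mice were counted as separate samples as labelled. Same-numbered HFD-fed and RD-fed wild-type mice deviated together (correlations 0.109 to 0.331 over bright clusters), a pairing seen in the data and not in the labels, so that comparison was also fitted with the number as a block, added after seeing the data. Promoter windows came from RefSeq (GRCm38.p6), 31 of 36 members matched by symbol, and the most upstream window was used.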

Additional observations from a re-analysis of the deposited data

How the results depend on the processing

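The count of members at an adjusted p under 0.05 was 0 under every alternative. At an unadjusted p under 0.05, an intensity trend with robust spread gave 2 members for HFD-fed minus RD-fed *App* mice, 3 for RD-fed *App* minus RD-fed wild-type, 3 for HFD-fed *App* minus HFD-fed wild-type, 1 for HFD-fed *App* minus RD-fed wild-type, 6 for genotype, 1 for diet and 1 for the interaction. Clusters above an intensity of 100 alone gave 2, 2 and 2 for the first 3 of these, 5 for genotype, 1 for diet and 1 for the interaction. Quantile normalization gave 1 for genotype. The fit of only the groups compared gave 0 for HFD-fed minus RD-fed *App* and 0 for RD-fed *App* minus RD-fed wild-type mice. The shares of all clusters at this unadjusted threshold under these settings are not given here. These counts of members can therefore not be read as an excess or a deficit, and the causes were not tested. Leaving out single mice gave 0 to 1 for HFD-fed minus RD-fed *App*, 0 to 2 for RD-fed *App* minus RD-fed wild-type, 0 to 1 for HFD-fed *App* minus either wild-type group, for diet and for the interaction, and 0 to 3 for genotype.

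Calls over all clusters were 2, 6 and 3 with the intensity trend for HFD-fed *App* minus HFD-fed wild-type, HFD-fed *App* minus RD-fed wild-type and genotype. They were 1, 8, 12 and, for diet, 3 among clusters above an intensity of 100. Quantile normalization called 1 for HFD-fed *App* minus RD-fed wild-type. Without single mice they were 0 to 1 for RD-fed *App* minus RD-fed wild-type, 0 to 2 for HFD-fed *App* minus HFD-fed wild-type, 0 to 2 for HFD-fed *App* minus RD-fed wild-type, 1 to 6 for genotype and 0 to 1 for diet.

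Over all groups, deviations of same-numbered mice correlated at -0.09 to 0.331 (median 0.0327) and those of differently numbered mice at -0.254 to 0.185 (median -0.0334), and the labels do not say that a number marks a shared litter or day. The replicate block over all groups gave 0 members at an unadjusted p under 0.05 for HFD-fed minus RD-fed *App* mice, the p of *Homer1* being 0.0677 in limma, and 0 called clusters for genotype, the adjusted p of *Cst7* being 0.0513. In HFD-fed minus RD-fed wild-type mice, the single comparison in which all 3 same-numbered pairs exceeded 0.1, the block in a fit of those groups alone changed no call.

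Near-zero values changed sign. With quantile normalization the *Dlg4* difference was 0.0042 on HFD in wild-type mice and -0.000476 for the interaction. Leaving out single mice, *Syp* ran from -0.0043 to 0.068 for HFD-fed minus RD-fed *App*, -0.053 to 0.022 for HFD-fed minus RD-fed wild-type, -0.072 to 0.014 for RD-fed *App* minus RD-fed wild-type, -0.00502 to 0.045 for HFD-fed *App* minus HFD-fed wild-type, -0.036 to 0.039 for HFD-fed *App* minus RD-fed wild-type, -0.027 to 0.016 for genotype and -0.014 to 0.024 for diet. *Dlg4* ran from -0.037 to 0.066, -0.036 to 0.053, -0.083 to 0.019, -0.0704 to 0.031, -0.061 to 0.0302, -0.052 to 0.0019 and -0.019 to 0.034 in the same order, and from -0.037 to 0.068 for the interaction. The presynaptic median ran from -0.0599 to 0.012 for RD-fed *App* minus RD-fed wild-type mice and from -0.030 to 0.016 for HFD-fed minus RD-fed *App* mice. For HFD-fed *App* minus HFD-fed wild-type mice it ran from -0.012 to 0.014. The postsynaptic median ran from -0.035 to 0.0037 for HFD-fed minus RD-fed *App* mice and from -0.015 to 0.038 for the interaction. For HFD-fed *App* minus RD-fed wild-type mice it stayed below zero, from -0.094 to -0.035. Members below zero in the interaction numbered 9 to 20, 12 with all mice. The mean over a gene's clusters and the presynaptic genes without *Slc17a6* moved no median beyond the spread between mice.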
